A study of Homo sapiens with 8 samples.

Results

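Cells with and without an induced hairpin RNA that targets AREG, which encodes the growth factor amphiregulin, were compared in N/TERT-2G cells, an immortalised line of human skin keratinocytes. Cells of every library carried the tetracycline-inducible hairpin construct. The 3 control libraries came from cells without tetracycline and the 3 Tet libraries from cells given tetracycline at 1 µg/ml, all taken at 60 h while subconfluent in keratinocyte serum-free medium with 0.4 mM CaCl2. A pair of further libraries had tetracycline and EGF at 20 ng/ml. They entered only the choice of genes to test and the estimate of the spread, so 6 of the 8 libraries carry the comparison. The genes described are those with an RPKM (reads per kilobase of transcript, scaled to sequencing depth) of at least 1 in at least 2 libraries, which were 12567 of the 21510 gene symbols measured. No library had tetracycline without the hairpin, so effects of the drug and of the hairpin cannot be told apart. Whether the replicates were grown as separate cultures, and whether the line is 1 clone, is not in the labels, and the p-values therefore cover no more than the spread among these libraries. In bulk RNA, fewer cells of a kind and less RNA per cell cannot be told apart.

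Amphiregulin is made as a membrane-bound precursor, is shed by the protease ADAM17 and acts on the EGF receptor, and keratinocytes in culture make it and respond to it themselves. EGF receptor signalling runs through the kinase ERK, keeps basal keratinocytes dividing and holds back differentiation, in which the cells leave the cell cycle and make suprabasal keratins, cornified envelope proteins and junctions. FOXM1, which the series title names, is a transcription factor that acts with MYBL2 and the MuvB complex on the promoters of genes of G2 phase and mitosis.

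Replicate 1 of each group is labelled batch 2 and replicates 2 and 3 are labelled batch 1, with nothing to say what a batch shared, and values of 3 libraries are given below in the order of replicates 1, 2 and 3. From the spacing of low RPKM values, the 6 libraries had 63.4% to 111% of the depth of control replicate 1, and the steps fix depth only up to a factor of 2. Between 11594 and 12025 genes reached 1 RPKM in the 6 libraries. Across genes, which are not independent replicates, control and Tet libraries correlated at 0.878 to 0.912, below the 0.9534 to 0.9617 between batches of 1 group. The summed RPKM of 10 keratinocyte markers was 20600 to 24000 in control and 28900 to 33500 in Tet libraries. Not all of them rose: 5 were called higher and 4 lower, 0 of them by 2-fold or more. Their median log2 fold change of 0.33 changed sign after quantile normalization. Of 10 fibroblast markers 6 were below 1 RPKM in all 6 libraries, among them COL1A2, COL3A1, PDGFRA, LUM and THY1, and the list summed to 11 to 15.8 RPKM in control and 29.1 to 30.9 in Tet libraries. Of 7 leukocyte markers 5 were below 1 RPKM in all 6, PTPRC among them, and the list summed to 47.5 to 59.1 RPKM in control and 29.2 to 41.6 in Tet libraries, with both tested members called lower. Of 5 endothelial markers 3 were below 1, with PECAM1 and CDH5 at 0, and of the other 2 markers 1 was called higher and 1 lower.

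Changes were tested on log2(RPKM + 0.5) with limma, with batch as a term, and a gene was called at a Benjamini-Hochberg adjusted p under 0.05 over all 12567 genes. With Tet 3294 genes were called higher (26.2% of those tested) and 3756 lower (29.9%), and at least 2-fold higher were 888 (7.07%) and lower 876 (6.97%). The 3 Tet libraries all lay above the 3 control libraries for 2750 genes (21.9%) and all below for 3262 (26%). The median log2 fold change over all genes was -0.04. These shares are the background for each list below: the lists were described by their counts and medians and were not tested as lists. For 3351 genes (26.7%) a limma interaction test called unequal changes in the batches, where batch 2 has 1 library a group. Of the 7050 called genes 6962 had the same sign in each batch. A fit without either replicate 1 library returns the batch 1 value of a gene, and that value is given for each gene named whose called fold change it moves by over 1.5 times, and for some others.

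**Figure D1:**
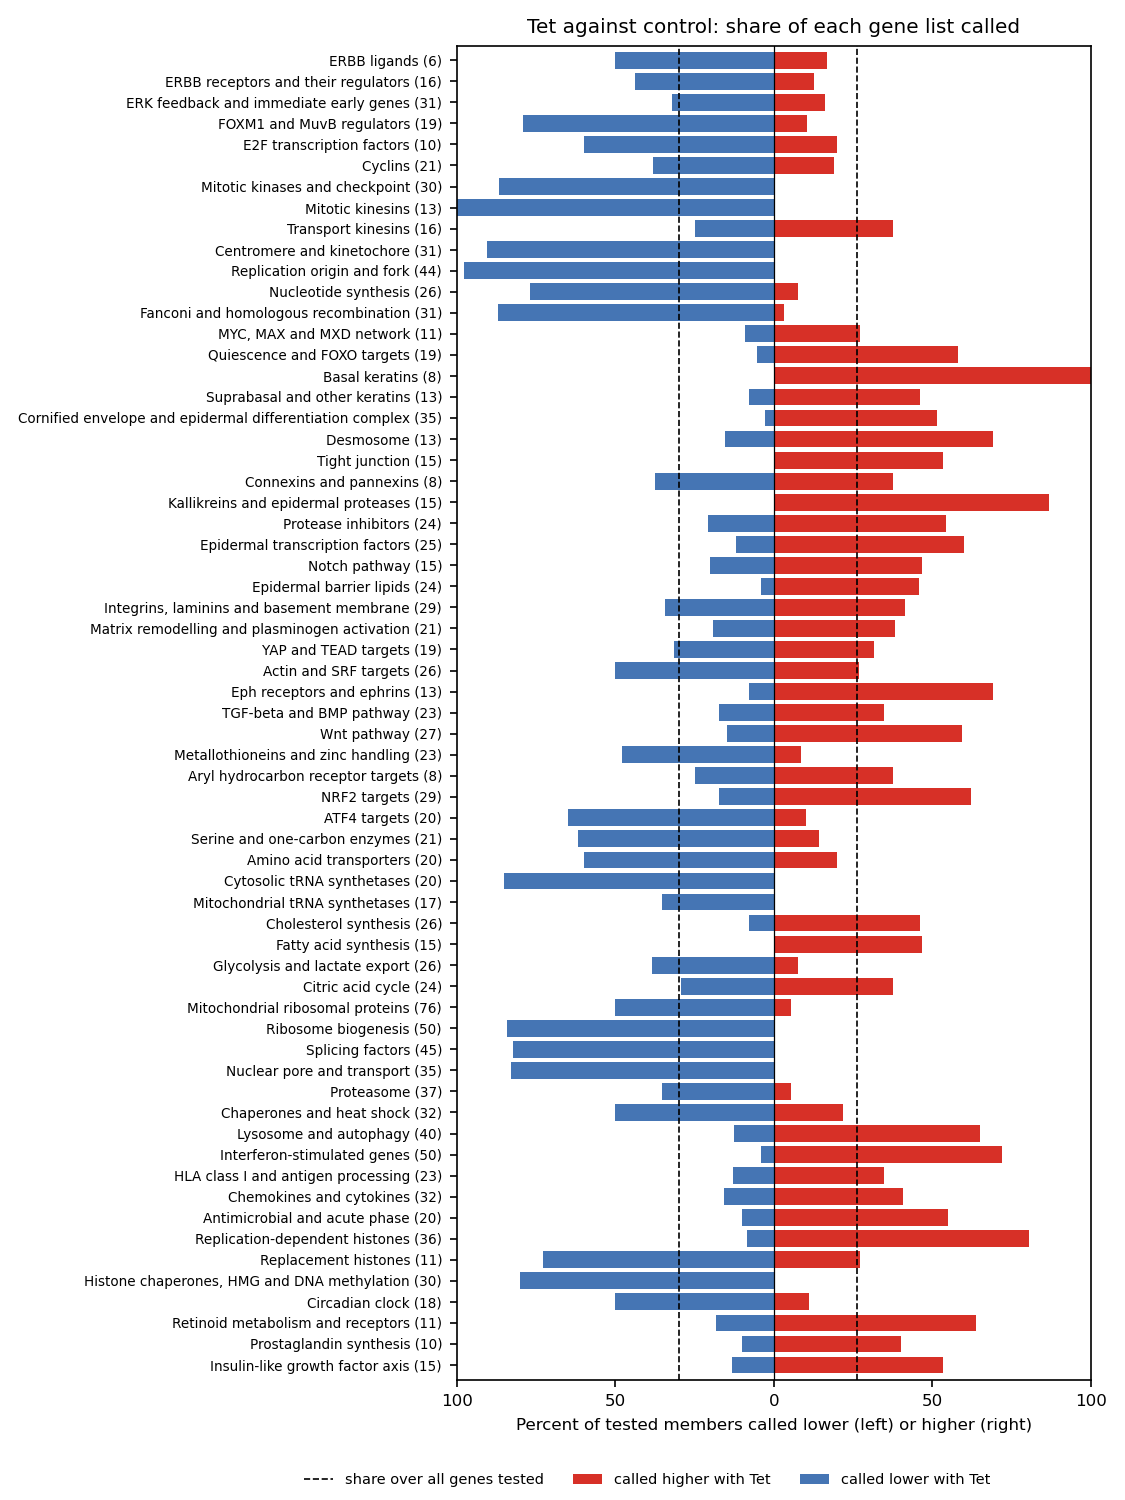
Share of the tested members of each gene list called lower (blue, to the left) or higher (red, to the right) with Tet, in percent, with the number tested in brackets; dashed lines mark the share over all 12567 genes. Lists of cell division, replication, ribosome biogenesis and splicing reach far to the left. Basal keratins (a list that includes wound-associated ones), epidermal proteases, interferon-stimulated genes and histones reach far to the right.

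The ERBB ligands divided. AREG, the target, stood at 316, 202 and 189 RPKM in control and 6.63, 16.7 and 16.2 in Tet libraries, a log2 fold change of -4.17 (SE 0.36, limma adjusted p = 0.000109). Its change was -3.53 in batch 1, and so without either replicate 1 library, and -5.47 in batch 2 (interaction -1.94, limma adjusted p = 0.000815). TGFA, the gene for transforming growth factor alpha, another EGF receptor ligand, was at 29.4, 24.9 and 24.2 RPKM in control and 6.57, 14.6 and 13.2 with Tet and fell by 1.22 on the log2 scale (SE 0.24, limma adjusted p = 0.00434, -0.80 in batch 1). EPGN, the gene for epigen, went the other way, from 3.91, 3.04 and 4.48 to 9.67, 14.5 and 12.7 RPKM, a rise of 1.56 (SE 0.21, limma adjusted p = 0.000796). The groups did not overlap for these 3 ligands. EREG, the gene for epiregulin, was at 30.8, 17.7 and 19.8 RPKM in control and 2.64, 12.8 and 12.8 in Tet libraries, and its call (limma adjusted p = 0.042) was lost with the replicate number as a block (adjusted p = 0.103) and without control replicate 3, Tet replicate 2, Tet replicate 3 or either Tet+EGF library (limma adjusted p 0.0519 to 0.0638). Its change was -0.53 in batch 1 and -3.32 in batch 2. Neither HBEGF (0.02 in batch 1, -3.14 in batch 2) nor NRG1 (0.90 and -0.59) was called.

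Of 16 tested ERBB receptor genes and their regulators, 2 rose and 7 fell, with a median of -0.22. EGFR, the receptor of amphiregulin, was at 95.3, 48.3 and 50.7 RPKM in control and 36.4, 26.7 and 24.6 in Tet libraries, a fall of 1.08 (SE 0.10, limma adjusted p = 0.000165). ERBB2, the partner receptor with no ligand of its own, lay between 27.5 and 32.1 RPKM in all 6 libraries, a log2 difference of -0.02 (SE 0.07, limma adjusted p = 0.779), which turns to 0.03 in batch 1. The feedback inhibitor gene ERRFI1, whose protein blocks the EGF receptor kinase, was at 37.4, 85.3 and 83.5 RPKM in control and 8.63, 32.7 and 32.4 with Tet and fell by 1.59 (SE 0.14, limma adjusted p = 0.000114). CBL, a ubiquitin ligase that sends the receptor for degradation, fell by 0.87 (limma adjusted p = 0.000789), and the adaptor gene SHC1 by 0.29 (limma adjusted p = 0.0059). RHBDF1, the gene for an inactive rhomboid protein that escorts ADAM17, rose by 0.55 (limma adjusted p = 0.0168), a call lost without control replicate 2 (log2 fold change 0.45, limma adjusted p = 0.0609) or control replicate 3 (0.54, limma adjusted p = 0.0546).

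Downstream of the receptor, 10 of 31 ERK feedback and immediate early genes fell and 5 rose. The share that fell was near the 29.9% of all genes tested, of which 26.2% rose. The ETS factors ETV4 and ETV5, which ERK signalling switches on, had the largest falls of the list, ETV4 from 29.2, 31.7 and 31.4 to 2.39, 4.99 and 5.47 RPKM, by 2.78 (SE 0.17, limma adjusted p = 3.06e-05). ETV5 stood at 12, 13 and 12.8 RPKM in control and 0.578, 2.22 and 2.02 in Tet libraries, a fall of 2.75 (SE 0.22, limma adjusted p = 9.11e-05). The ternary complex factor ELK3 fell from 24, 32 and 33.2 to 7.43, 8.4 and 8.66 RPKM, by 1.79 (limma adjusted p = 9.67e-06). No library of either group overlapped the other for these 3 genes. In the opposite direction DUSP1, an early phosphatase gene that acts on stress kinases, rose by 1.42 (limma adjusted p = 0.00217; 1.84 in batch 1 and 0.59 in batch 2) and JUN, a subunit of AP-1, by 0.83 (limma adjusted p = 0.00539; 1.12 and 0.26). The list median of -0.16 was 0.18 in batch 1, and so without either replicate 1 library, and -0.88 in batch 2.

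Most genes of mitosis fell. Of 19 genes of FOXM1 and the MuvB regulators 15 fell and 2 rose, and of 30 mitotic kinase and checkpoint genes 26 fell and 0 rose, with medians of -0.73 and -2.00. MYBL2, the MYB family partner of MuvB, dropped from 21.1, 51.6 and 48.9 to 2.19, 2.42 and 2.69 RPKM, by 3.7 on the log2 scale (SE 0.21, limma adjusted p = 2.5e-05). FOXM1 itself was at 23.9, 37.4 and 36.5 RPKM in control and 2.48, 3.85 and 3.999 in Tet libraries. CDC20, which activates the anaphase-promoting complex, stood at 66.7, 109 and 102 RPKM in control and 6.91, 11.2 and 11.3 with Tet, with an almost equal change in each batch (-3.17 and -3.18, SE 0.06, limma adjusted p = 1.51e-06). For these genes the highest Tet library was below the lowest control library. Of the chromosomal passenger complex, which corrects attachments of chromosomes to the spindle, the kinase gene AURKB fell by 3.21 (limma adjusted p = 8.18e-06) and CDCA8, the gene for borealin, by 3.22 (limma adjusted p = 2.55e-05). CDC25C, a phosphatase that opens entry to mitosis, fell from 5.17, 4.93 and 5.17 to 0.24, 0.388 and 0.28 RPKM (limma adjusted p = 9.09e-06).

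Kinesins, motors that walk along microtubules, were called differently by role. Each of 13 mitotic kinesin genes fell, with a median of -2.11, while of 16 kinesin genes of cargo transport 6 rose and 4 fell, with a median of 0.16. KIF20A, the motor that carries passenger proteins to the spindle midzone, went from 12.9, 34.6 and 32.1 to 1.69, 1.82 and 1.71 RPKM, a fall of 3.47 (SE 0.25, limma adjusted p = 5.39e-05). KIF2C, which takes microtubule ends apart at kinetochores, was at 14.4, 26.1 and 23.9 RPKM in control and at 3.04, 3.11 and 3.08 in Tet libraries, a fall of 2.57 (limma adjusted p = 2.8e-05). The control replicate 1 library was the lowest control library for both, and still above every Tet library. Among transport motors KIF13A rose by 0.65 (limma adjusted p = 0.000307) and KIF3A, of the ciliary kinesin, by 0.63 (limma adjusted p = 0.000825), whereas KIF3B, its partner, fell by 0.88 (limma adjusted p = 0.000136). At the centromere 28 of 31 genes fell and 0 rose, with a median of -1.72. CENPA, the histone H3 variant that marks centromeres, was at 8.6, 9.8 and 8.49 RPKM in control and 0.742, 0.913 and 0.808 with Tet, and its chaperone gene HJURP fell by 2.9 (limma adjusted p = 2.8e-05), against 2.84 for CENPA (limma adjusted p = 6.09e-06).

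The promoters of these genes carry motifs that were known before these data: the cell cycle homology region (CHR), which MuvB reads, and the CCAAT box, which the factor NF-Y reads. CHR was searched as TTTGAA or TTCGAA and the CCAAT box as CCAAT, on both strands, in 300-base RefSeq promoters (250 bases before and 50 from the start site; the reverse complement of TTCGAA is itself). Of 74 tested genes of the kinase, mitotic kinesin and centromere lists, 61 had a promoter in the table. CHR occurred in 38 of these 61 (62.3%), in 11.1% of the 9644 tested genes with a promoter and in 16.6% of all 27305 promoters. CCAAT occurred in 67.2%, 36.9% and 35.7%. CCNB2, PLK1 and CDC20, all called lower and lower within each batch, are shown since both motifs stand in each of them (GRCh38.p14, 5′ to 3′ on the gene's strand, motifs in capitals). CCNB2 holds CCAAT 4 times and CHR once at chr15:59104896-59105195 (plus strand), PLK1 each motif once at chr16:23678639-23678938 (plus strand) and CDC20 each motif in 2 places at chr1:43358731-43359030 (plus strand).
CCNB2: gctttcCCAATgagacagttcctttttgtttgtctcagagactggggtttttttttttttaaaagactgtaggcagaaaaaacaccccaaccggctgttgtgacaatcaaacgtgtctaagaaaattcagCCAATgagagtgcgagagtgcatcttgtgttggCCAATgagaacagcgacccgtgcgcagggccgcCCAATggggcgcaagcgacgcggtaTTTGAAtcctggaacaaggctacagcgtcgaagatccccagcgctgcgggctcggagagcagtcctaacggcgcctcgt
PLK1: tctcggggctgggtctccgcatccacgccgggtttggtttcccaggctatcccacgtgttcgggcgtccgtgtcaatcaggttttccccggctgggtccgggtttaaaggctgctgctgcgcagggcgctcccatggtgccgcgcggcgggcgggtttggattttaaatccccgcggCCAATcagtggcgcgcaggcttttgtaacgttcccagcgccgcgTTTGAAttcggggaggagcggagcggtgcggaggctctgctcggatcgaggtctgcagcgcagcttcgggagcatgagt
CDC20: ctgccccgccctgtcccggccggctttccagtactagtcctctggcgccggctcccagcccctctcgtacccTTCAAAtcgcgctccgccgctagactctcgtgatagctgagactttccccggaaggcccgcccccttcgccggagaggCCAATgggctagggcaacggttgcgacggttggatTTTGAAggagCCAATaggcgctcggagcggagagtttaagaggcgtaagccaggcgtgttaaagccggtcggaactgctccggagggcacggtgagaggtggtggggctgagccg
CCNB2, the gene for cyclin B2, fell from 32, 45.4 and 43.6 to 5.3, 6.62 and 4.96 RPKM, by 2.73 (SE 0.14, limma adjusted p = 1.73e-05), and PLK1 from 27.1, 51.3 and 47.9 to 4.34, 7.34 and 7.18, by 2.63 (SE 0.08, limma adjusted p = 3.97e-06). A match describes the letters only and is no evidence that a factor was bound.

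**Figure D2:**
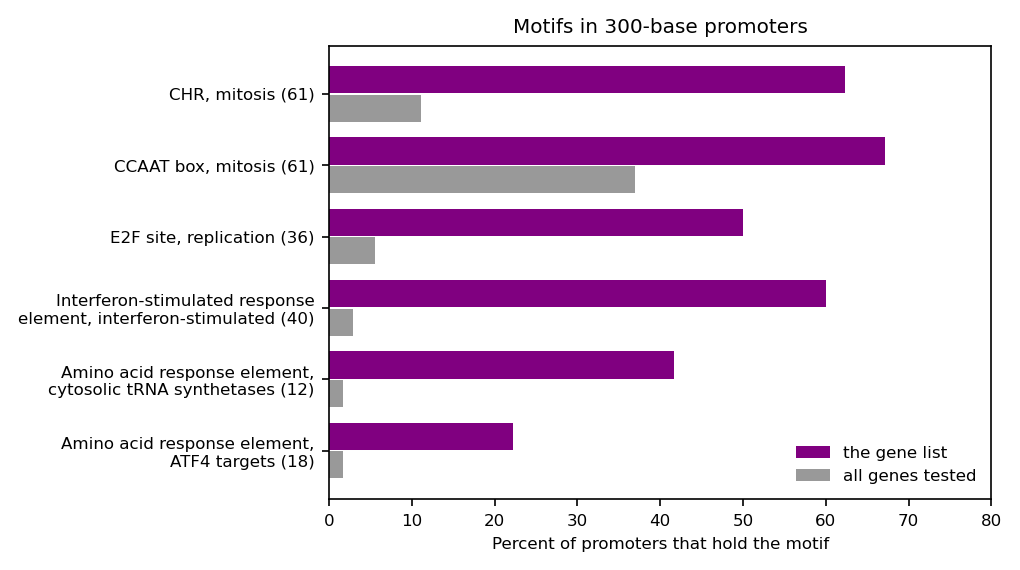
Percent of 300-base RefSeq promoters that hold a motif on either strand, for a gene list (purple, with the number of promoters in brackets) and for the 9644 tested genes with a promoter (grey). CHR is in 62.3% of mitosis promoters against 11.1%, and the interferon-stimulated response element in 60.0% of interferon-stimulated promoters against 2.85%. These shares count motifs only, take no account of the changes with Tet and are no support for them.

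Replication genes also fell, by unequal amounts in the batches. Of 44 genes of the replication origin and fork, 43 fell and 0 rose, with a median of -1.47 that was -1.85 in batch 1 and -0.73 in batch 2. GINS2, of the replicative helicase, was at 9.27, 25.1 and 23.5 RPKM in control and 1.96, 2.23 and 1.84 in Tet libraries, a fall of 2.86 (SE 0.25, limma adjusted p = 0.000127). LIG1, the ligase that joins Okazaki fragments, went from 9.53, 20.3 and 20.8 to 2.31, 2.26 and 2.69 RPKM, a fall of 2.49 (SE 0.20, limma adjusted p = 7.89e-05). MCM6, a helicase subunit, showed the unequal batches most: 4.93, 27.7 and 25.7 RPKM in control and 4.15, 4.98 and 4.58 with Tet. The control replicate 1 library lay within 1 RPKM of the Tet libraries and overlapped them, and the change was -2.37 in batch 1 and -0.22 in batch 2 (interaction 2.14, limma adjusted p = 0.000893). RRM2, the regulated subunit of ribonucleotide reductase, fell by 3.03 (limma adjusted p = 7.24e-05; -3.42 and -2.25 by batch) and TYMS, thymidylate synthase, by 1.63 (limma adjusted p = 0.00354; -2.18 and -0.53). RRM2B, a second copy of the RRM2 subunit, rose by 0.40 (limma adjusted p = 0.00358).

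E2F factors read the motif that marks many replication promoters. It was searched as TTTCCCGC, TTTCGCGC, TTTGCCGC or TTTGGCGC on both strands and stood in 18 of 36 replication promoters (50%), in 11.5% of mitosis promoters, in 5.59% of the promoters of all tested genes and in 3.33% of all promoters. CHR stood in 5.56% of replication promoters. MCM6 is shown since it holds the E2F motif 4 times, as 2 overlapping pairs on opposite strands, and yet changed little in batch 2 (chr2:135876394-135876693, GRCh38.p14, minus strand; motifs in capitals).
MCM6: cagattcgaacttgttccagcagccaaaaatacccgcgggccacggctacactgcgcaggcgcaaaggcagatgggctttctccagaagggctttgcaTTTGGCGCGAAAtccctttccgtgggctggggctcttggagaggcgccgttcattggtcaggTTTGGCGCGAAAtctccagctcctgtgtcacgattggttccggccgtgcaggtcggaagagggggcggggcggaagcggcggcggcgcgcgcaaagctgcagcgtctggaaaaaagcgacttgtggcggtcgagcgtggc
Among the E2F genes themselves, E2F1 was at 2.22, 7.59 and 9.1 RPKM in control and 1.1, 1.28 and 1.43 with Tet, a fall of 1.76 (limma adjusted p = 0.00182; -2.25 in batch 1 and -0.77 in batch 2). E2F7, which represses E2F targets, was more even, at -1.92 and -1.93 (limma adjusted p = 1.85e-05), and E2F5, a repressive pocket protein partner, rose by 1.08 (limma adjusted p = 0.00956; 1.5 and 0.26). Of 31 Fanconi and homologous recombination genes, which repair crosslinks and broken forks, 27 fell and 1 rose, with a median of -1.23.

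An 8-base word that AREG shares with FOXM1, CCAAGTCA, was followed through the 3′ UTRs of GENCODE v29 (GRCh38). No source used here gives the hairpin's sequence, so it is not known to hold this word, and the word was chosen from earlier results on these data. Among 11199 searched genes besides AREG, 398 held the word in a 3′ UTR of at least 100 bases. FOXM1 is counted among these 398. Of these 398, 202 fell (50.8%) and 56 rose, with a median log2 fold change of -0.30, against 3451 lower (30.8%) and 3022 higher of all 11199. Those lower by at least 2-fold made up 18.1% against 7.18%. A further 1586 genes held the first or last 7 bases of the word but not all 8, and of these 42.1% fell and 19.9% rose. Of 9215 genes with neither 7-base word 28% fell and 28.8% rose, with a median of -0.01. With the word in more than 1 place were 18 genes, of which 11 fell and 1 rose. No unrelated word was searched for comparison. The length of the 3′ UTR was not taken into account, and its part in these shares was not tested.

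Windows of 30 bases around the word are shown for AREG, for FOXM1 and for genes of other pathways, chosen after their values were seen (GRCh38, 5′ to 3′, CCAAGTCA in capitals). They lie at chr4:74454762-74454791 (plus strand) for AREG, chr12:2858014-2858043 (minus strand) for FOXM1, chr5:69177972-69178001 (plus strand) for CCNB1, chr7:141750381-141750410 (plus strand) for SSBP1, chr1:64834491-64834520 (minus strand) for JAK1, chr11:114312528-114312557 (plus strand) for NNMT, chr1:8861129-8861158 (minus strand) for ENO1, chr18:12326244-12326273 (plus strand) for TUBB6 and chr1:156699766-156699795 (minus strand) for CRABP2.
AREG: atcacattggagtcactgCCAAGTCAtagc
FOXM1: tgccacctccccgtgtttCCAAGTCAgctt
CCNB1: ggacatactgcatgtaagCCAAGTCAtgga
SSBP1: tttggtacagtctcatttCCAAGTCAtgta
JAK1: ttctcctgcaacaaatgcCCAAGTCAtttt
NNMT: agtccttgtttctaactgCCAAGTCAtgtg
ENO1: tgcagtcgtgtaattggcCCAAGTCAttgt
TUBB6: ggcccctcacaaatgcagCCAAGTCAtgta
CRABP2: ggttcactccccgcctccCCAAGTCAgcag
SSBP1, which binds single-stranded mitochondrial DNA, was at 85.6, 132 and 122 RPKM in control and 14.2, 14.2 and 17 in Tet libraries, a fall of 2.84 (SE 0.11, limma adjusted p = 8.18e-06). JAK1, a cytokine receptor kinase, fell from 31.2, 22.6 and 24.1 to 4.43, 4.53 and 3.57 RPKM, by 2.49 (SE 0.12, limma adjusted p = 1.34e-05), and ENO1, the glycolytic enolase, from 539.7, 1445 and 1365 to 205, 263 and 289, by 2.03 (SE 0.19, limma adjusted p = 0.000152). NNMT, a nicotinamide methyltransferase whose site matches AREG over an unbroken 13 bases, fell by 2.09 (limma adjusted p = 5.51e-05), and TUBB6, a beta tubulin, by 1.71 (limma adjusted p = 1.2e-05). The groups were apart for each of these 5 genes. The word did not go with a fall everywhere: CRABP2, which holds it, rose by 3.17 (limma adjusted p = 1.51e-06), as did THBD, the thrombomodulin gene, by 1.74 (limma adjusted p = 0.000276). Nor did a longer match to AREG always go with a larger fall. ATP6V1C1, with an unbroken match of 15 bases, was not called (-0.22, limma adjusted p = 0.0645). ATP6V1C1 was chosen after its value was seen.

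**Figure D3:**
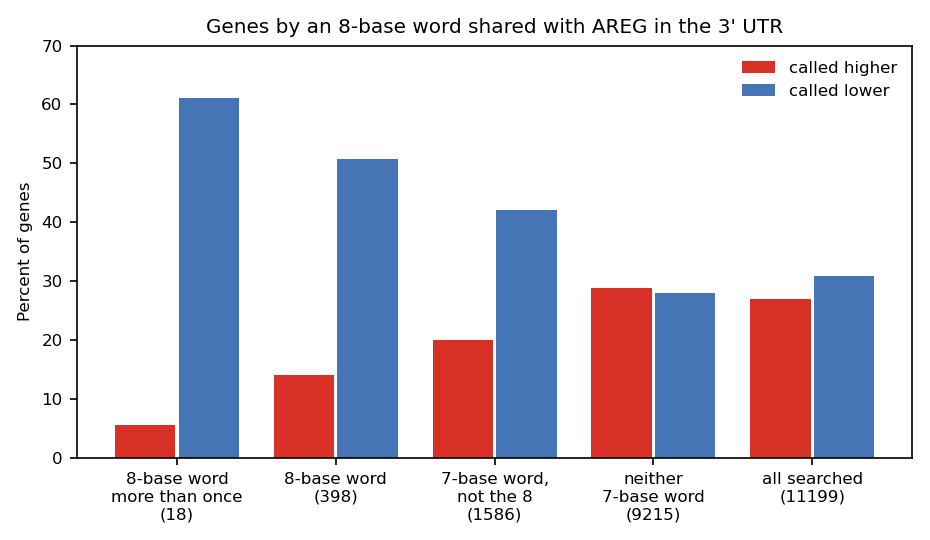
Percent of genes called higher (red) or lower (blue) with Tet, by whether their 3′ UTR holds the 8-base word more than once, at least once, only 1 of its 7-base words, or neither; gene numbers in brackets. The share called lower goes from 61.1% and 50.8% to 28%, and the share called higher from 5.56% and 14.1% to 28.8%. The word was chosen from earlier results on these data, and 3′ UTR length was not taken into account.

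Lists could be read with and without genes that hold either 7-base word. Of 45 ribosome biogenesis genes searched, 10 held one and all 10 fell, and of the 35 without one 27 fell and 0 rose. Of 28 mitotic kinase and checkpoint genes, 24 held neither word and 20 of these fell. For 41 replication genes the corresponding numbers were 36 and 35. The 2 lysosome and autophagy genes with the largest falls, TPP1 and LIPA, both held the full word. Of the 5 genes of this list with a word 3 fell and 2 rose, and of the 34 without one 24 rose and 2 fell. In some other lists most genes with a word rose: 5 of 7 in the Wnt pathway with 0 lower, and 3 of 4 among quiescence and FOXO target genes with 0 lower.

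Most genes that mark quiescence rose. Of 19 quiescence and FOXO target genes 11 rose and 1 fell, with a median of 0.54. SESN3, a FOXO target that restrains mTORC1, was at 2.09, 2.08 and 1.39 RPKM in control and 10.6, 11.8 and 10.6 in Tet libraries, a rise of 2.3 (SE 0.15, limma adjusted p = 3.31e-05). MXD4, a MAX partner that opposes MYC, went from 8.12, 9.58 and 9.33 to 29.7, 27 and 28.4 RPKM, by 1.6 (SE 0.08, limma adjusted p = 1.84e-05). For both genes every Tet library lay above every control library, by similar amounts in each batch (2.4 and 2.1 for SESN3, 1.5 and 1.81 for MXD4). MYC itself was not called, at 69.2, 171 and 174 RPKM in control and 39.7, 202 and 208 with Tet (limma adjusted p = 0.685). MYCL1, another MYC family member, rose by 2.29 (limma adjusted p = 4.71e-05), with 3.51, 0.859 and 1.1 RPKM in control and 26.7, 5.58 and 5.69 in Tet libraries. PIK3IP1, an inhibitor of PI3 kinase, rose by 1.4 (limma adjusted p = 8.34e-05) and FOXO4 by 1.09 (limma adjusted p = 0.000191). TXNIP, a brake on glucose uptake, was the member that fell, and it differed more between batches than between groups: 551, 35.3 and 34.3 RPKM in control and 267, 22.5 and 16.5 in Tet libraries (log2 fold change -0.91, limma adjusted p = 0.00134).

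**Figure D4:**
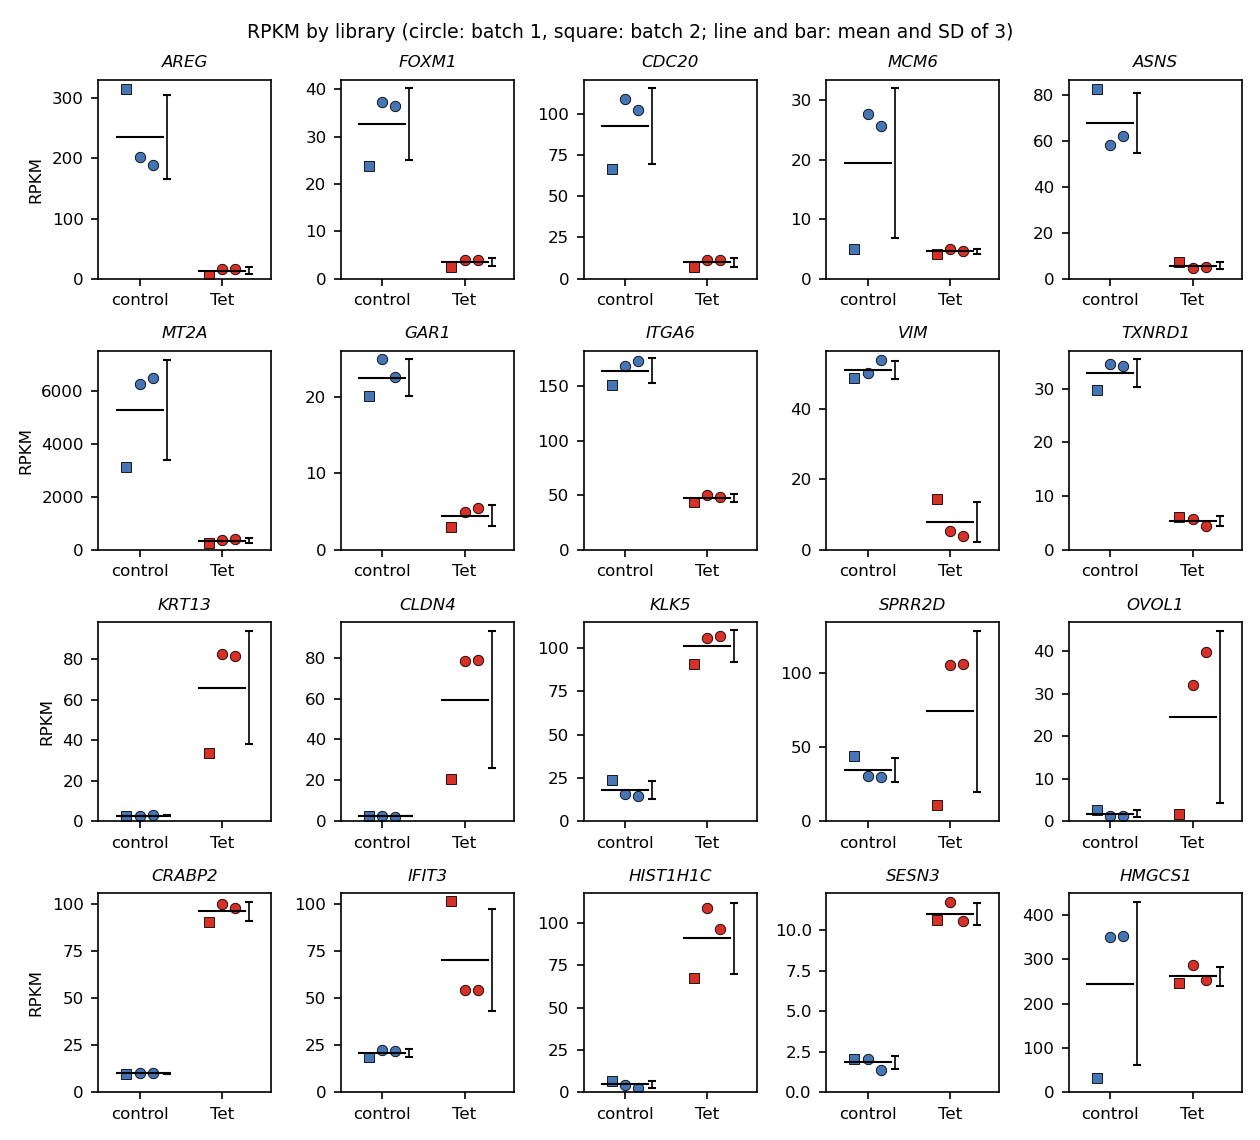
RPKM of 20 genes in each control (blue) and Tet (red) library; circles are batch 1, squares batch 2, the line is the mean of 3 and the bar its SD. ITGA6, TXNRD1, CRABP2 and SESN3 separate the groups with little difference between batches, while for MCM6, OVOL1, SPRR2D and HMGCS1 the groups overlap.

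Histone genes went apart by type in these libraries of polyadenylated RNA, which are not made to capture histone messages that end in a stem-loop. Of 64 replication-dependent histone genes 36 passed the filter on low values, and of these 29 were called higher and 3 lower. HIST2H2BE was at 8.2, 2.1 and 2.36 RPKM in control and 59.1, 88.3 and 79.2 in Tet libraries, a rise of 4.22 (SE 0.39, limma adjusted p = 0.000154; 4.95 in batch 1). HIST1H2AC went from 11.2, 3.001 and 4.01 to 60.5, 73.7 and 66.2 RPKM, by 3.56 (SE 0.33, limma adjusted p = 0.000153; 4.15 in batch 1), and HIST1H1C, a linker histone gene, was at 7.004, 4.16 and 2.89 RPKM in control and 67.9, 109 and 96.6 with Tet (log2 fold change 4.19, limma adjusted p = 5.03e-05). For these 3 every Tet library lay above every control library. Members of this family are near-identical, and no source used here says how reads were shared between them. Of 11 replacement histone genes, which are polyadenylated and made through the whole cycle, 8 fell and 3 rose. H2AFX, the variant phosphorylated at DNA breaks, fell from 25.3, 60.8 and 50.5 to 9.34, 15 and 14.9 RPKM (log2 fold change -1.7, limma adjusted p = 5.02e-05). The 2 genes for histone H3.3 diverged: H3F3B fell by 1.48 (limma adjusted p = 4.4e-05) and H3F3A rose by 0.51 (limma adjusted p = 0.00757; 0.33 in batch 1). Of 30 genes of histone chaperones, HMG proteins and DNA methylation 24 fell and 0 rose, and HMGB2, an abundant chromatin protein of dividing cells, was at 46.2, 50.4 and 46.8 RPKM in control and 13.5, 8.51 and 6.35 with Tet (log2 fold change -2.34, limma adjusted p = 0.000128).

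Genes of the amino acid response formed a second block of falls. ATF4 is a transcription factor made when amino acids run short or the endoplasmic reticulum is stressed, and its targets supply amino acids and charge tRNAs. Of 20 ATF4 targets 13 fell and 2 rose, of 21 genes of serine and one-carbon metabolism 13 fell and 3 rose, and of 20 cytosolic tRNA synthetase genes 17 fell and 0 rose, with medians of -1.55, -0.85 and -0.75. ATF4 itself was at 156, 152 and 145 RPKM in control and 80.1, 85.5 and 94.2 with Tet, a fall of 0.80 (SE 0.09, limma adjusted p = 0.000423). PSAT1, of serine synthesis, dropped from 113, 69.3 and 71.9 to 17.3, 12.1 and 10.1 RPKM, by 2.63 (SE 0.13, limma adjusted p = 1.71e-05). AARS, the alanyl-tRNA synthetase, went from 154, 93.9 and 91.6 to 42.5, 32.5 and 33.6 RPKM, a fall of 1.6 (SE 0.12, limma adjusted p = 5.68e-05), and SLC7A11, the cystine importer, fell by 2.28 (limma adjusted p = 0.000106). For these 4 genes the lowest control library lay above the highest Tet library. In the other direction NUPR1, a stress-induced chromatin protein, rose by 2.57 (limma adjusted p = 0.000359) and the leucine carrier gene SLC7A8 by 1.34 (limma adjusted p = 5.39e-05). Mitochondrial tRNA synthetases moved less: 6 of 17 fell and 0 rose, with a median of -0.16.

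ATF4 binds the amino acid response element, searched here as TGATGNAA on both strands. It stood in 5 of 12 cytosolic synthetase promoters (41.7%), in 4 of 18 ATF4 target promoters (22.2%), in 1.66% of the promoters of tested genes and in 3.67% of all promoters. The ASNS promoter is shown with its 1 match in capitals (chr7:97872359-97872658, GRCh38.p14, minus strand).
ASNS: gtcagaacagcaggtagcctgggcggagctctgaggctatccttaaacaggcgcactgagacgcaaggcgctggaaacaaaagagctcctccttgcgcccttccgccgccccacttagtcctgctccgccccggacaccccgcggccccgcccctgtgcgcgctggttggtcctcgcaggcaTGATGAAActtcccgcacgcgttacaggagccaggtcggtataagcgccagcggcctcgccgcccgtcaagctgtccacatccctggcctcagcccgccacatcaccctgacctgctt
ASNS, asparagine synthetase, was at 82.8, 58.3 and 62.2 RPKM in control and 7.3, 4.46 and 4.89 in Tet libraries, with -3.55 in batch 1 and -3.42 in batch 2 on the log2 scale (SE 0.12, limma adjusted p = 5.94e-06).

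The machinery that builds ribosomes and moves and splices RNA was lower by smaller amounts but in most members. Of 50 ribosome biogenesis genes 42 fell, of 45 splicing factor genes 37 and of 35 genes of the nuclear pore and transport 29, with 0 rises in each list and medians of -0.68, -0.46 and -0.63. GAR1, of the H/ACA particle that makes pseudouridine in ribosomal RNA, was at 20.1, 24.9 and 22.6 RPKM in control and 2.95, 4.92 and 5.53 with Tet, a fall of 2.25 (SE 0.13, limma adjusted p = 2.46e-05). TCOF1, which serves transcription of ribosomal DNA and holds the 8-base word, fell from 33.1, 42.9 and 43.2 to 8.85, 10.9 and 10.7 RPKM (log2 fold change -1.91, limma adjusted p = 5.86e-06). HNRNPA1, an abundant splicing regulator, was at 374, 418 and 403 RPKM in control and 171, 160.5 and 152 in Tet libraries (log2 fold change -1.3, limma adjusted p = 1.98e-05). All 3 were lower in every Tet library than in any control library. Of 76 mitochondrial ribosomal protein genes 38 fell and 4 rose (median -0.24), and of 37 proteasome genes 13 fell and 2 rose, the latter being PSMB10, an immunoproteasome subunit, at 1.15 (limma adjusted p = 3.72e-05), and PSME1, of its interferon-induced cap, at 0.48 (limma adjusted p = 0.00326). Of 32 chaperone genes 16 fell and 7 rose. HSPA5, the chaperone of the endoplasmic reticulum, fell by 1.34 (limma adjusted p = 0.00101; -2.02 in batch 2), whereas the small heat shock genes HSPB8 and HSPB1 rose by 3.6 and 1.58 (limma adjusted p = 1.15e-05 and 0.000115). HSPB8 was below 1 RPKM in each control library and at 6.83, 13.5 and 13.8 in Tet libraries.

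Basal and wound-associated keratin genes, listed together, rose. All 8 tested were called higher, with a median of 1.33, but KRT5 and KRT14 rose by less, 0.52 and 0.65. The call of KRT15 was lost with the block (adjusted p = 0.051) and without Tet replicate 3 (limma adjusted p = 0.0793). KRT5, which had the highest RPKM of all genes, was at 14170, 10757 and 11072 in control and 19392, 15309 and 16594 in Tet libraries, a rise of 0.52 (SE 0.06, limma adjusted p = 0.000373). KRT6A, induced in wounds and in hyperproliferative skin, went from 1845, 2308 and 2422 to 4780.1, 6243 and 6849 RPKM, by 1.44 (SE 0.07, limma adjusted p = 1.19e-05), and its partner KRT16 rose by 1.45 (limma adjusted p = 5.39e-05). Quantile normalization gives every library the same set of values and so the same highest value. After it the log2 fold change of KRT5 was 0 and that of KRT14, otherwise 0.65, was -0.12, and neither was called. The call of KRT14 was also lost without the filter on low values (limma adjusted p = 0.476). KRT6A, KRT6B and KRT6C are near-identical, as are parts of KRT14, KRT16 and KRT17, so reads may be split between them. Of 13 suprabasal and other keratins 6 were called higher and 1 lower. The latter was KRT18, a keratin of simple epithelia, at -0.61 (limma adjusted p = 0.0273; -0.28 in batch 1), whose call was lost with the block (adjusted p = 0.0783) and without control replicate 2 (limma adjusted p = 0.0503). KRT13 was at 2.66, 2.41 and 3.15 RPKM in control and 33.7, 82.3 and 81.5 in Tet libraries (log2 fold change 4.25, limma adjusted p = 2.32e-05). KRT10, the keratin of early suprabasal cells, was at 19, 24.6 and 22.8 RPKM in control and 19.8, 118 and 118 with Tet, a change of 2.29 in batch 1 and 0.06 in batch 2. Its call (limma adjusted p = 0.0143) was lost with the block (adjusted p = 0.05) and without any 1 of the 4 control and Tet libraries of batch 1 (limma adjusted p 0.0528 to 0.062).

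Most cell junction and surface protease genes that were tested rose. Of 13 desmosome genes 9 rose and 2 fell, of 21 tight junction genes 15 passed the filter on low values and of those 8 rose and 0 fell, and of 22 kallikrein and epidermal protease genes 15 passed and of those 13 rose. CLDN4, a claudin that seals tight junctions, was at 2.59, 2.56 and 2.28 RPKM in control and 20.7, 78.6 and 78.9 in Tet libraries, a rise of 4.1 (SE 0.36, limma adjusted p = 0.000127; 4.76 in batch 1). CGN, cingulin, which ties tight junctions to actin, went from 3.48, 1.71 and 1.76 to 17.7, 17.5 and 16 RPKM, by 2.7 (SE 0.15, limma adjusted p = 2.43e-05), and PKP1, a desmosomal plaque protein, from 129, 85.2 and 87.9 to 296, 266 and 272, by 1.48 (SE 0.09, limma adjusted p = 3.32e-05). KLK5, which starts the protease cascade that sheds the outer skin cells, was at 24, 15.4 and 14.5 RPKM in control and 90.6, 106 and 107 with Tet, and its inhibitor gene SPINK5 rose too, by 1.7 (limma adjusted p = 0.000789). PRSS22, a serine protease gene, stood at 1.92, 1.18 and 1.68 RPKM in control and 70.2, 41.6 and 48.2 in Tet libraries (log2 fold change 4.67, limma adjusted p = 3.64e-06). The groups were apart for all 5 genes with values here. CLDN1, the main claudin of epidermis, was not called: 14.1, 7.36 and 8.72 RPKM in control and 8.88, 67.6 and 64.5 with Tet, 2.97 in batch 1 and -0.64 in batch 2 (limma adjusted p = 0.0522). Connexins were mixed, with 3 of 8 higher, among them GJA1 at 0.89 (limma adjusted p = 0.000157), and 3 lower, among them GJC1 at -0.90 (limma adjusted p = 0.00322).

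Late differentiation separated the batches. Of 51 genes of the cornified envelope and the epidermal differentiation complex 35 passed the filter on low values, and of these 18 were called higher and 1 lower, with a median of 0.99 in batch 1 and 0.07 in batch 2. SPRR2D, a small proline-rich envelope precursor, was at 44.1, 30.3 and 29.6 RPKM in control and 11.2, 105 and 106 in Tet libraries. Its change was 1.8 in batch 1 and -1.93 in batch 2 (interaction -3.73, limma adjusted p = 0.000361), and it was not called. SCEL, sciellin of the envelope, rose in both batches, from 0.872, 0.483 and 1.08 to 7.04, 12.7 and 9.91 RPKM (log2 fold change 2.97, SE 0.23, limma adjusted p = 7.6e-05). IVL, involucrin, was at 0.98, 3.43 and 3.28 RPKM in control and 1.06, 8.81 and 7.49 with Tet, 1.16 in batch 1 and 0.07 in batch 2. S100A7, psoriasin, was the member called lower (-1.48, limma adjusted p = 0.0194), and the call was lost with the block (adjusted p = 0.0557) and without Tet replicate 2 (limma adjusted p = 0.0648) or Tet replicate 3 (limma adjusted p = 0.0707).

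Transcription factors of the epidermis also differed between batches. Of 32 listed 25 passed the filter on low values, and of these 15 were called higher and 3 lower, with a median of 0.55. OVOL1, a repressor that helps end proliferation, had the largest batch difference of this list: 2.72, 1.22 and 1.27 RPKM in control and 1.57, 32.1 and 39.7 in Tet libraries, so that the Tet library of batch 2 lay among the controls. Its change was 4.38 in batch 1 and -0.64 in batch 2 (interaction limma adjusted p = 0.000242), and its call (limma adjusted p = 0.037) was lost with the block (adjusted p = 0.0934), without any 1 of the 4 control and Tet libraries of batch 1 (limma adjusted p 0.119 to 0.129) and without either Tet+EGF library (0.057). ZNF750 and GRHL3, factors of terminal differentiation, rose by 2.29 and 1.88 (limma adjusted p = 0.00563 and 0.0066), with 3.17 and 2.63 in batch 1. CEBPA was at 11.7, 4.24 and 3.46 RPKM in control and 19.3, 20.7 and 20.8 with Tet (log2 fold change 1.76, limma adjusted p = 0.00218; 2.29 in batch 1). In the Notch pathway, which drives keratinocytes out of the basal layer, 7 of 15 genes rose and 3 fell. HES2, a HES family gene, was at 8.99, 7.09 and 6.62 RPKM in control and 33.6, 37 and 33.6 in Tet libraries, without overlap (log2 fold change 2.14, SE 0.11, limma adjusted p = 1.65e-05). NOTCH3 rose by 2.1 (limma adjusted p = 0.00125, with 2.66 and 0.96 by batch).

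**Figure D5:**
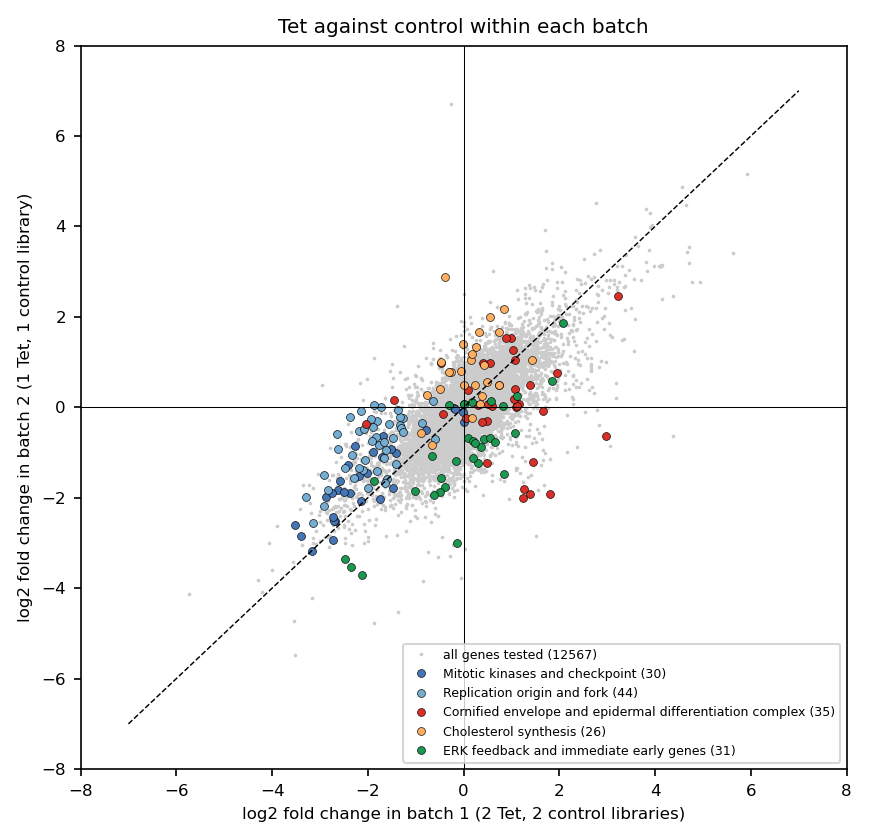
Log2 fold change of Tet against control within batch 1 (horizontal axis) and within batch 2 (vertical axis) for 12567 genes (grey) and 5 lists in colour; the dashed line marks equal change. Mitotic genes lie low in both batches, replication genes lie lower in batch 1, several cornified envelope genes are above 0 in batch 1 and below 0 in batch 2, and cholesterol synthesis genes lie higher in batch 2.

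Genes of adhesion to the basement membrane and of the matrix were called in both directions, as were all genes. Of 29 integrin, laminin and basement membrane genes 12 rose and 10 fell, and the share that fell was near the 29.9% of all genes tested. Of 21 genes of matrix remodelling and plasminogen activation 8 rose and 4 fell, a smaller share lower than among all genes. ITGA6, the integrin chain that anchors basal cells through hemidesmosomes, was at 151, 168 and 173 RPKM in control and 43.8, 50.7 and 48.1 in Tet libraries, a fall of 1.78 (SE 0.06, limma adjusted p = 5.54e-06). Its partner gene ITGB4 fell by 1.00 (limma adjusted p = 0.000489), and FN1, fibronectin, from 927, 1691 and 1868 to 293, 491 and 493 RPKM, by 1.79 (SE 0.07, limma adjusted p = 7.29e-06). Each of these 3 genes was lower in all Tet libraries. ITGB6, an integrin chain of wound edges that activates TGF-beta, rose by 1.28 (limma adjusted p = 0.000221) and PLAU, urokinase, by 1.49 (SE 0.05, limma adjusted p = 5.94e-06), while SERPINE2, an inhibitor of urokinase and thrombin, was at 35.3, 37.3 and 38.2 RPKM in control and 6.29, 6.23 and 5.6 in Tet libraries (log2 fold change -2.52, limma adjusted p = 5.54e-06). Among 26 actin and SRF target genes 13 fell and 7 rose. VIM, vimentin, an intermediate filament of migrating cells, was at 48.8, 50.1 and 53.8 RPKM in control and 14.5, 5.3 and 4.06 with Tet, -3.35 in batch 1 and -1.72 in batch 2 (limma adjusted p = 0.000313), whereas MYL9, a myosin light chain, rose by 1.98 (limma adjusted p = 1.12e-05). YAP and TEAD targets gave 6 rises and 6 falls in 19, both near the shares of all genes. NT5E, an ectonucleotidase, fell by 2.03 (limma adjusted p = 3.06e-05). Of 13 Eph receptors and ephrins, which signal at cell contacts, 9 rose and 1, EFNB1, fell.

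Among secreted signals, Wnt pathway genes rose in 16 of 27 and fell in 4. WNT10A, a Wnt ligand of skin appendages, was at 6.78, 1.77 and 2.24 RPKM in control and 39.5, 53 and 49.2 in Tet libraries, a rise of 3.73 (SE 0.35, limma adjusted p = 0.000166; 4.37 in batch 1). WNT4 went from 0.624, 0.12 and 0.149 to 6.67, 3.68 and 4.17 RPKM (log2 fold change 2.76, limma adjusted p = 7.58e-06). Of the nuclear partners of beta-catenin, LEF1 fell by 1.57 and TCF7L1, which represses targets, by 1.52 (limma adjusted p = 6.27e-05 and 4.74e-05), while TCF7L2, named after its value was seen, was not called (-0.18, limma adjusted p = 0.12). In the TGF-beta and BMP pathway 8 of 23 rose and 4 fell. ID3, a BMP target, was at 31.6, 23.3 and 23.6 RPKM in control and 106, 137 and 157 with Tet (log2 fold change 2.32, limma adjusted p = 6.4e-05), and SMURF2, a ubiquitin ligase of the receptors, fell by 2.1 (limma adjusted p = 1.84e-05). IGFL1, an insulin-like growth factor family gene expressed in skin, rose from 14.6, 19.8 and 22.8 to 94.6, 195 and 203 RPKM, by 3.02 (SE 0.13, limma adjusted p = 9.21e-06). PTGES, a prostaglandin E synthase, rose by 2.96 (limma adjusted p = 7.24e-05).

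Metallothioneins are small proteins that bind zinc and copper. Of 12 listed 10 passed the filter on low values, and of these 9 were called lower and 0 higher. MT2A, among the genes with the highest RPKM in control, stood at 3113, 6261 and 6463 RPKM there and 256, 383 and 414 in Tet libraries, a fall of 3.86 (SE 0.09, limma adjusted p = 2.12e-06). MT1E was at 967, 883 and 945 RPKM in control and 133, 117 and 126 with Tet, a fall of 2.89 (SE 0.06, limma adjusted p = 1.51e-06). MT1X, of the same cluster, was not called, at 304, 267 and 327 RPKM in control and 549.5, 286 and 327 with Tet (limma adjusted p = 0.148). MT1 genes are near-identical, so reads may be split between them. Over the whole list of metallothionein and zinc genes 11 of 23 fell and 2 rose. SLC39A6, a zinc importer, rose by 0.53 (limma adjusted p = 0.00106), and MTF1, the zinc-sensing factor that drives metallothioneins, was not called (-0.23, limma adjusted p = 0.333). The core of the metal response element, searched as TGCACNC or TGCGCNC on both strands, stood in 4 of 4 metallothionein promoters in the table, but also in 38.8% of the promoters of tested genes and in 29.3% of all promoters. The MT2A promoter is shown since it holds 8 matches (chr16:56608334-56608633, GRCh38.p14, plus strand; matches in capitals).
MT2A: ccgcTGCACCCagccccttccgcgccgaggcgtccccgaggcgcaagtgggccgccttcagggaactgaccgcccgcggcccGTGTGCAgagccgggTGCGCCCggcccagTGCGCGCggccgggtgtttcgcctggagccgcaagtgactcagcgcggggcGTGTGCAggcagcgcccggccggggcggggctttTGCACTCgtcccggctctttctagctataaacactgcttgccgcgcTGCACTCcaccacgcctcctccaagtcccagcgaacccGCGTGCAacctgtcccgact
MT1E, MT1X and MTF1 were chosen after their values were seen.

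Listed genes of detoxification were called higher more often than lower, and the shares called lower were below the 29.9% of all genes tested. Of 29 NRF2 targets, the antioxidant and phase II genes, 18 rose and 5 fell, with a median of 0.36. AKR1C3, an aldo-keto reductase, was at 9.17, 7.27 and 6.86 RPKM in control and 45.3, 42.6 and 39.9 in Tet libraries, a rise of 2.39 (SE 0.09, limma adjusted p = 6.97e-06), and GCLC, of glutathione synthesis, rose by 1.74 (limma adjusted p = 0.000564). TXNRD1, thioredoxin reductase, fell from 29.8, 34.5 and 34.2 to 6.04, 5.68 and 4.4 RPKM, by 2.51 (SE 0.13, limma adjusted p = 1.66e-05), in every Tet library. Of 8 aryl hydrocarbon receptor targets 3 rose and 2 fell. CYP1A1, the enzyme this receptor is best known to induce, was at 6.97, 1.85 and 1.82 RPKM in control and 78.4, 120.3 and 110.04 in Tet libraries (log2 fold change 4.89, limma adjusted p = 0.000101; 5.63 in batch 1), while TIPARP, another target, fell by 0.75 (limma adjusted p = 0.00131). UGT1A6, a glucuronosyltransferase, rose by 3.7 (limma adjusted p = 1.31e-05), and UGT1A7, UGT1A9 and UGT1A10 each by 3.8. UGT1A genes share their last exons, so these are not separate measurements.

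Lipid genes were called higher more often than lower. Of 26 cholesterol synthesis genes 12 rose and 2 fell, with a median of 0.18 in batch 1 and 0.79 in batch 2, and of 15 fatty acid synthesis genes 7 rose and 0 fell. HMGCS1, which makes the precursor of mevalonate, was at 33.3, 349.6 and 353 RPKM in control and 247, 286 and 253 in Tet libraries. It was not called, and the control replicate 1 library lay far below the others: -0.38 in batch 1 and 2.87 in batch 2 (interaction limma adjusted p = 0.000618). MVD, of the same pathway, rose by 1.29 (limma adjusted p = 0.00405), with 0.84 and 2.18. SCD5, a fatty acid desaturase, was even, from 7.92, 11.4 and 9.23 to 39.5, 43.6 and 40.5 RPKM (log2 fold change 2.07, SE 0.10, limma adjusted p = 1.62e-05), and ACSL1, which activates fatty acids, rose by 1.92 (limma adjusted p = 9.21e-06). Among 24 tested genes of barrier lipids 11 rose and 1, ALOXE3, fell. ABCA12, the lipid pump of lamellar granules, rose by 2.06 (limma adjusted p = 0.00196; 2.67 and 0.84 by batch). CRABP2, which carries retinoic acid to its receptor, was at 9.9, 10.4 and 10.3 RPKM in control and 90.3, 100.01 and 98 with Tet, with 3.2 and 3.13 by batch. RDH10, which starts retinoic acid synthesis, fell by 1.2 (limma adjusted p = 0.000236).

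Of 26 genes of glycolysis and lactate export 10 fell and 2 rose, with a median of -0.10, close to that of all genes. The glucose transporter gene SLC2A3 fell by 1.21 and SLC2A1 rose by 0.51 (limma adjusted p = 7.49e-05 and 0.000342). In the citric acid cycle 9 of 24 rose and 7 fell. CS, citrate synthase, fell by 0.88 (limma adjusted p = 3.06e-05).

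Lysosome and autophagy genes rose in 26 of 40 and fell in 5, with a median of 0.51. GPNMB, a lysosomal membrane glycoprotein, was at 0.403, 0.218 and 0.229 RPKM in control and 19.7, 17.1 and 18.3 in Tet libraries, a rise of 4.59 (SE 0.13, limma adjusted p = 3.97e-06). CTSL2, the cathepsin of the epidermis also called cathepsin V, went from 18.6, 21.4 and 20.3 to 67.9, 65.9 and 59.6 RPKM, by 1.66 (SE 0.08, limma adjusted p = 1.69e-05). Both were higher in all Tet libraries. TPP1 and LIPA, a lysosomal peptidase and lipase, fell by 1.5 and 1.12 (limma adjusted p = 2.92e-05 and 0.000121).

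Of 50 interferon-stimulated genes 36 rose and 2 fell, with a median of 0.66. IFIT3, which binds viral RNA caps with its relatives, was at 18.6, 22.3 and 22 RPKM in control and 102, 54.4 and 54.8 in Tet libraries, a rise of 1.66 (SE 0.21, limma adjusted p = 0.000607; 1.28 in batch 1 and 2.42 in batch 2). IFIT2 rose by 1.64 (limma adjusted p = 0.000556), and CMPK2, a mitochondrial nucleotide kinase, by 1.42 (limma adjusted p = 0.000862). The Tet library of batch 2 was the highest for each of these 3. The interferon-stimulated response element, searched as GAAA, any 2 bases and GAAA on both strands, stood in 24 of 40 promoters of the list (60.0%), in 2.85% of promoters of tested genes and in 3.65% of all promoters. The IFIT3 promoter is shown with its 2 matches in capitals (chr10:89327747-89328046, GRCh38.p14, plus strand).
IFIT3: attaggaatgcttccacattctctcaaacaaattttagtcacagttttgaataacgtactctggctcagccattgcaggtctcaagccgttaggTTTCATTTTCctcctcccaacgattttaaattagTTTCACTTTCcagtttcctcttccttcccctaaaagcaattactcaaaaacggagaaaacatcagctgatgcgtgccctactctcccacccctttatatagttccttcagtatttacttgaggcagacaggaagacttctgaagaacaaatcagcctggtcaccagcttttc
Of 23 HLA class I and antigen processing genes 8 were called higher and 3 lower, with a median of 0.11. The share called higher was not far above the 26.2% of all genes tested, and the share called lower was below the 29.9%. TAPBPL, a peptide editor, rose by 1.66 (limma adjusted p = 1.47e-05).

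Of 47 chemokine and cytokine genes 32 passed the filter on low values, and of these 13 were called higher and 5 lower. CXCL14, a chemokine made by resting epithelium, was at 0.317, 0.632 and 1.33 RPKM in control and 28.8, 78.1 and 96.3 in Tet libraries (log2 fold change 5.67, limma adjusted p = 8.18e-06). The receptor antagonists IL1RN and IL1F5, which block the interleukin 1 and interleukin 36 receptors, rose by 2.24 and 3.01 (limma adjusted p = 7.07e-06 and 9.67e-06), and IL24 fell from 10.1, 46.3 and 52.3 to 0.1, 0.291 and 0.599 RPKM (limma adjusted p = 3.31e-05). Complement genes C1S and C1R rose by 2.15 and 1.83 (limma adjusted p = 3.1e-05 and 1.85e-05). In each of these 6 genes, CXCL14 included, the groups were apart.

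Of 18 clock genes 9 fell and 2 rose, with a median of -0.56. NR1D1, the nuclear receptor REV-ERB alpha that represses the clock's activators, was at 36, 7.21 and 7.09 RPKM in control and 5.03, 1.22 and 0.963 in Tet libraries. Its level differed between batches in both groups, and the fall was 2.27 in batch 1 and 2.72 in batch 2 on the log2 scale (SE 0.12, limma adjusted p = 1.7e-05). PER3 fell by 1.39 (limma adjusted p = 0.000146) and CLOCK by 0.69 (limma adjusted p = 0.000621), while BHLHE40, a repressor of clock output, rose by 0.43 (limma adjusted p = 0.00175).

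Some of the largest rises belonged to none of the lists. OLR1, a scavenger receptor for oxidised lipoprotein, was at or below 0.087 RPKM in control and at 6.21, 15.4 and 13.6 in Tet libraries (log2 fold change 4.32, limma adjusted p = 1.89e-05). CXCR7, an atypical chemokine receptor, was at 0.536, 0.297 and 0.313 and 19.8, 11.4 and 11.5 RPKM (4.03, limma adjusted p = 5.59e-06), and SNCG, gamma synuclein, at 3.74, 2.83 and 1.59 and 67.2, 34.8 and 42.6 (3.92, limma adjusted p = 1.1e-05). For all 3 each Tet library lay above each control library, which the rule that named them required. Of the fibroblast markers DCN, decorin, rose in the same libraries, from 0.08, 0 and 0.027 to 9.01, 7.61 and 7.04 RPKM (limma adjusted p = 3.64e-06), and COL1A1 by 2.07 (limma adjusted p = 8.19e-05), while COL1A2, COL3A1 and LUM stayed below 1 RPKM; the part of other cells in the results was not tested. Of the genes named above, SHC1, MYC, ATF4, IVL, THBD, SSBP1, JAK1, NNMT and TUBB6 were also chosen after their values were seen.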

How the data were processed

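RNA-seq libraries of polyadenylated RNA from 8 samples were used, 3 control, 3 Tet and 2 Tet+EGF. The deposited table gives RPKM per gene symbol, made by the authors. TopHat 1.3.3 is named in the submitters' processing notes; no source used here gives the genome build, the counting tool or the use of strand, so overlapping, antisense and near-identical genes are uncertain. Of the symbols, 26 had been turned into dates by a spreadsheet, 18 of them among the tested genes.

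Values were taken as log2(RPKM + 0.5) after a filter of at least 1 RPKM in at least 2 of the 8 libraries. limma 3.58.1 (R 4.3.3) was fitted with group and batch on all 8 libraries, with a moderated variance that follows the mean, two-sided tests and Benjamini-Hochberg adjustment over all 12567 genes. Fold changes are on the log2(RPKM + 0.5) scale and understate changes of low genes. RPKM are not counts, and total depth is not given by them, so no count model was fitted and no counting intervals were computed. In simulated data with 100 genes changed 2-fold and 100 changed 1.5-fold among 12567, the Tet against control test recovered 90% and 57%, with 5.16% of calls false. The simulated share of changed genes was far below the share called in the data, and its noise was independent between libraries. These rates therefore need not hold for the data.

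Same-numbered control and Tet libraries deviated together from their group means (correlations of 0.476, 0.314 and 0.338 for replicates 1 to 3), as did different numbers within batch 1 (0.272 and 0.334). The rule that all 3 pairs exceed 0.1 was met, but these values do not tell pairs from a shared batch. The main fit has a batch term and takes no account of pairs. A fit with the replicate number as a block on the 6 libraries was an alternative. The others were pseudocounts, filters, scalings, no batch term, no trend, batch 1 alone and each library left out.

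The gene lists and the genes described were chosen with earlier results of these data known. Genes named were AREG, FOXM1 and the ERBB genes, the called genes with the largest rises and falls, the 4 called members of a list with the largest change in its main direction and 2 in the other, the largest batch interactions and the genes of highest RPKM. Genes outside this rule are said to be chosen after their values were seen. Promoters are RefSeq (GRCh38.p14), and 3′ UTRs are GENCODE v29 (GRCh38), matched by symbol. Python 3.11.15, pandas 2.3.3, numpy 2.4.6 and matplotlib 3.10.9 were used.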

Additional observations from a re-analysis of the deposited data

How the results depend on the processing

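No call of the 7050 turned to a call in the opposite direction under any alternative. The counts of 3294 genes called higher and 3756 lower were 3284 and 3750 with a pseudocount of 0.1, 3292 and 3756 with 1, 3367 and 3697 when libraries were scaled by median ratios, 3802 and 3241 when scaled by upper quartiles, 3487 and 3555 after quantile normalization and 3611 and 3678 in batch 1 alone. With the replicate number as a block they were 2406 and 2659, and the block ended no call of a gene given with values above other than those stated beside it. Without a batch term 2246 were higher and 2500 lower, and without the filter on low values 3305 and 3377. With that filter on only the 6 control and Tet libraries, the counts were 3267 and 3741. Of the 362 genes that the naming rule picks, 54 lost their call without a batch term and 40 without the filter. A filter at a mean of 5 RPKM, which tests fewer genes, left 486 genes at least 2-fold higher and 551 lower. Leaving out 1 library gave 2756 to 3953 higher and 3201 to 4012 lower. Log2 fold changes reversed for KRT14 (-0.117) after quantile normalization, and for ERBB2 with upper-quartile scaling (0.053), after quantile normalization (0.063) and in batch 1 alone (0.034). In batch 1 alone, values reversed to 0.023 for HBEGF, -0.385 for HMGCS1, -0.464 for S100A2 and -0.073 for TMSB10. In the fit of all libraries only KRT14 of these was called; in batch 1 alone HMGCS1 (limma adjusted p = 0.0059) and S100A2 (limma adjusted p = 0.00394) were called lower. Over the fits that leave out 1 library, the log2 fold change ran from -1.476 to 0.023 for HBEGF, -0.048 to 0.034 for ERBB2, -0.385 to 1.064 for HMGCS1, -0.046 to 1.392 for SPRR2B, -0.464 to 0.185 for S100A2 and -0.073 to 0.295 for TMSB10, reversing in batch 1 alone or, for SPRR2B, without a batch 1 library. The cause of these reversals was not tested. Depth limits the low genes most: a difference near 1 RPKM rests on few reads, and their number is not known from RPKM.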

Other observations

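Acute phase and protease inhibitor genes also separated the groups. Of 20 antimicrobial and acute phase genes that passed the filter on low values 11 were called higher and 2 lower. SAA1, serum amyloid A, was at 36.1, 25 and 24.5 RPKM in control and 219.6, 194 and 181 in Tet libraries, a rise of 2.79 (SE 0.10, limma adjusted p = 5.86e-06), in 3 of 3 Tet libraries above all controls. Of 24 protease inhibitor genes 13 were called higher and 5 lower. SERPINB13, an epidermal inhibitor of cathepsins, rose from 7.5, 5.1 and 5.2 to 35.9, 65.5 and 60.3 RPKM (log2 fold change 3.05, limma adjusted p = 8.05e-05). TFPI2, a Kunitz inhibitor found in the matrix, fell from 10.9, 21.9 and 24.5 to 0.169, 0.351 and 1.43 RPKM (log2 fold change -4.17, limma adjusted p = 4.03e-05). Neither pair of groups overlapped.

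Of 21 cyclin genes 8 were called lower and 4 higher. CCNA2, the cyclin of S phase and G2, fell from 15.3, 25.5 and 25 to 2.56, 2.67 and 2.68 RPKM (log2 fold change -2.8, limma adjusted p = 1.55e-05) and CCNF, a cyclin-like ubiquitin ligase subunit, by 2.38 (limma adjusted p = 8.18e-06), while CCNG1, the gene for cyclin G1, rose by 1.06 (limma adjusted p = 0.000241). IRS1, the adaptor of the insulin receptor, rose from 4.01, 7.08 and 6.55 to 9.62, 24.1 and 26.9 RPKM, by 1.61 (limma adjusted p = 0.000142), and IGF2BP2, an RNA-binding protein, fell by 0.86 (limma adjusted p = 7.73e-05).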
